A study of Mus musculus with 12 samples.

Results

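Most aldehyde dehydrogenases oxidise reactive aldehydes to carboxylic acids with NAD+ or NADP+. Mammals carry a family of these enzymes that differ in substrate and in the compartment of the cell where they work. In brain they dispose of the aldehydes formed from dopamine, GABA, lysine, valine, sphingolipids and oxidised membrane lipids, and some make retinoic acid. The 9 members described here are Aldh7a1, Aldh1a1, Aldh2, Aldh1b1, Aldh3a2, Aldh5a1, Aldh6a1, Aldh9a1 and Aldh18a1, taken as the array rows whose only platform gene symbol is one of these names. They are 9 of the 21 aldehyde dehydrogenase genes listed and of the 16721 genes tested, and each was represented by 1 probe set. All 9 lay above the 25th percentile of the array on all 12 arrays. The list was chosen by name with earlier results of the same arrays known, in which Aldh7a1 and Aldh1a1 had differed between genotypes, so the differences given for the members are descriptions and not independent tests.

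RNA was measured in the striatum, the forebrain nucleus most affected in Huntington's disease, of male mice aged 90 days, on 12 whole-transcript arrays. There were 3 arrays from each of 4 genotypes: HdhQ111/Q111 with mGluR5-/-, HdhQ111/Q111 with mGluR5+/+, HdhQ20/Q20 with mGluR5-/- and HdhQ20/Q20 with mGluR5+/+. HdhQ111 and HdhQ20 are knock-in alleles of the mouse huntingtin gene (Htt) with a long and a short CAG repeat, both homozygous here, so the control mice carried a knock-in allele as well and no array came from mice with an unmodified Htt. mGluR5 is the metabotropic glutamate receptor encoded by Grm5, and both alleles act in all tissues. All mice were of a mixed 129, CD-1, C57BL/6 and FV background. Whether the 3 arrays of a genotype represent different animals is not stated in the labels, and the errors therefore measure the spread between these arrays. Values are log2 signals made by the authors with RMA, and differences are on the same log2 scale with the standard error (SE) of limma. A gene was called at a limma p below 0.05 after Benjamini-Hochberg adjustment over all 16721 genes.

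The 12 arrays had medians of 7.05 to 7.16 on the log2 scale. Grm5 averaged 11.07 in Q111 mGluR5-/- mice, 11.94 in Q111 mGluR5+/+ mice, 11.06 in Q20 mGluR5-/- mice and 12.00 in Q20 mGluR5+/+ mice, and all 6 mGluR5-/- arrays (10.93 to 11.17) lay below all 6 mGluR5+/+ arrays (11.85 to 12.08). The 10 tested markers of striatal projection neurons averaged between 11.35 and 11.57 per array. In whole tissue, fewer cells of a type and less RNA per cell cannot be told apart. The second replicate had the widest interquartile range in 4 of 4 groups, and the range over all arrays was 2.56 to 2.95.

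Aldh1a1 makes retinoic acid from retinaldehyde in the cytosol, and in mice its closest relative Aldh1a7 lies beside it on chromosome 19. Their promoter sequences are shown because Aldh1a1 was the member that was higher with the Q111 allele. The difference of its near copy Aldh1a7, described with the other family genes, had the opposite sign and was not called. Aldh1a7 was dim, above the 25th percentile on 4 of 12 arrays, all of Q20 mice. Nothing is read from its sign. The RefSeq windows on GRCm38.p6 hold 300 bases around a transcript start, chr19:20601718-20602017 on the plus strand for Aldh1a1 and chr19:20727507-20727806 on the minus strand for Aldh1a7. Capitals mark CCAAT and the octamer ATGCAAAT.
Aldh1a1: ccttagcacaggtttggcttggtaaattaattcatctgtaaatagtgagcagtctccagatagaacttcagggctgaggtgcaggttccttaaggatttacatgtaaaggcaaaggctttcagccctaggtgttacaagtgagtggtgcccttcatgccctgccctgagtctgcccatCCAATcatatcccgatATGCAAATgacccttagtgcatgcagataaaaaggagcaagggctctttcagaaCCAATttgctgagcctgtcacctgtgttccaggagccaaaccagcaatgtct
Aldh1a7: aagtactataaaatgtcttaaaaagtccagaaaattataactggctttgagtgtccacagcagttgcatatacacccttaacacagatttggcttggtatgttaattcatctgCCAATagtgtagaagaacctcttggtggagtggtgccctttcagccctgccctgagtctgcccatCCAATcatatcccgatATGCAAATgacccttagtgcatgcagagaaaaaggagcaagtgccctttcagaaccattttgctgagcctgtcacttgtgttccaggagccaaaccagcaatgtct
The windows were identical at 224 of 282 aligned positions (79.4%), with a longest shared run of 65 bases. A further 36 positions of the alignment held a gap and are not counted in the percentage. The octamer stands at bases 195 to 202 of both windows, and CCAAT at bases 179 to 183 of both. RefSeq gives Aldh1a1 an earlier start as well, whose window chr19:20492333-20492632 holds neither motif, and the probe set was not assigned to either start. The window shown is the one that was aligned with Aldh1a7. A further CCAAT stands at bases 249 to 253 in Aldh1a1 and at bases 114 to 118 in Aldh1a7. Searched on both strands, CCAAT was in 37.4% and the octamer in 1.74% of 32851 promoters of the same length, and the motifs do not overlap. Promoters were at hand for 7 of the 9 members, and of their 9 windows 7 held CCAAT and 1 the octamer. A match of letters is a description and not a binding site.

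Aldh1a1 was higher in striatum of Q111 mice than of Q20 mice. Its log2 signal was 8.89, 9.07 and 8.99 in Q111 mGluR5-/- mice and 8.99, 8.97 and 8.93 in Q111 mGluR5+/+ mice, against 8.21, 8.50 and 8.49 in Q20 mGluR5-/- mice and 8.37, 7.81 and 8.52 in Q20 mGluR5+/+ mice. All 6 Q111 arrays lay above all 6 Q20 arrays, with a gap of 0.37 between the lowest Q111 and the highest Q20 array. The Q111 arrays sat close together, with 8.98 ± 0.09 in mGluR5-/- and 8.96 ± 0.03 in mGluR5+/+ mice, and the Q20 arrays were wider, with 8.40 ± 0.16 and 8.23 ± 0.37 for the same receptor genotypes (SD, n = 3 each). The second replicate of Q20 mGluR5+/+ mice was the lowest of the 12 arrays.

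Averaged over the receptor genotypes, the difference of Aldh1a1 between Q111 and Q20 mice was 0.66 ± 0.10 (SE), or 1.58-fold, and was called. It stayed called when any 1 of the 12 arrays was left out, with differences of 0.55 to 0.73. In mGluR5+/+ mice alone it was 0.73 ± 0.15, or 1.66-fold, and was called. That call was present in 5 of the 12 fits that left out an array, whose differences ran from 0.52 to 0.87. It was absent without Q20 mGluR5+/+ replicate 1 (0.80) or replicate 2 (0.52), without Q111 mGluR5+/+ replicate 1 (0.72), 2 (0.73) or 3 (0.75), and without Q111 mGluR5-/- replicate 1 or 3 (0.73 each). In mGluR5-/- mice the difference was 0.59 ± 0.15, or 1.50-fold, and was not called, although all 3 Q111 arrays were above all 3 Q20 arrays with a gap of 0.39. It was called without Q20 mGluR5+/+ replicate 2. The difference of these effects was -0.14 ± 0.21 and was not called, so they were not shown to differ between the receptor genotypes. Loss of mGluR5 gave Aldh1a1 differences of 0.02 ± 0.15 in Q111 mice and 0.17 ± 0.15 in Q20 mice, neither called. Without Q20 mGluR5+/+ replicate 2 the loss in Q20 mice was -0.04 and the interaction 0.07, both opposite in sign to the values with all arrays.

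Aldh7a1, also named antiquitin, oxidises the semialdehyde of α-aminoadipate in the breakdown of lysine, and loss of the human enzyme causes pyridoxine-dependent epilepsy. Its striatal signal was lowest in Q111 mice without the receptor and highest in Q20 mice without the receptor. The log2 values were 9.16, 9.06 and 8.93 in Q111 mGluR5-/- mice, 9.04, 10.11 and 9.51 in Q111 mGluR5+/+ mice, 10.33, 10.30 and 10.02 in Q20 mGluR5-/- mice and 9.08, 9.24 and 9.17 in Q20 mGluR5+/+ mice. The group means were 9.05 ± 0.12, 9.55 ± 0.54, 10.22 ± 0.17 and 9.16 ± 0.08 in the same order (SD, n = 3 each). Put in order, 7 arrays lay between 8.93 and 9.24, Q111 mGluR5+/+ replicate 3 followed at 9.51 after a gap of 0.27, and 4 arrays lay between 10.02 and 10.33 after a further gap of 0.51. Those 4 were the 3 arrays of Q20 mGluR5-/- mice and Q111 mGluR5+/+ replicate 2. The within-group SD of Aldh7a1, 0.289, was larger than that of 97.9% of tested genes, and most of it came from the Q111 mGluR5+/+ group.

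Among mGluR5-/- mice, Aldh7a1 was lower in Q111 than in Q20 striatum by a log2 difference of -1.17 ± 0.19, with a gap of 0.86 between the groups and a call in this comparison. This call stood in each of the 12 fits that left out an array, with differences of -1.26 to -1.11. Among Q20 mice, Aldh7a1 was higher in mGluR5-/- than in mGluR5+/+ striatum by 1.06 ± 0.19, or 2.08-fold, with a gap of 0.79 and a call. Both comparisons use the same 3 arrays of Q20 mGluR5-/- mice. The call of the receptor effect stood in 7 of the 12 fits. It was absent without Q20 mGluR5-/- replicate 1 (0.9999) or 2 (1.02) and without Q20 mGluR5+/+ replicate 1 (1.02), 2 (1.09) or 3 (1.06).

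The other comparisons of Aldh7a1 rested on the wide Q111 mGluR5+/+ group. Among mGluR5+/+ mice the Q111 minus Q20 difference was 0.39 ± 0.19, not called, and the groups overlapped. It was 0.12 without Q111 mGluR5+/+ replicate 2 and 0.65 without replicate 1. Among Q111 mice, the mGluR5-/- minus mGluR5+/+ difference was -0.50 ± 0.19, not called, and was -0.22 without Q111 mGluR5+/+ replicate 2 and -0.76 without replicate 1. The interaction, the Q111 effect in mGluR5-/- mice minus that in mGluR5+/+ mice, was -1.56 ± 0.27 and was called. It ran from -1.82 to -1.28 when an array was left out, and the call was absent without Q111 mGluR5-/- replicate 3 (-1.50), Q20 mGluR5-/- replicate 1 (-1.50) or Q20 mGluR5+/+ replicate 3 (-1.56). The average Q111 effect, -0.39 ± 0.13, was not called with all arrays and was -0.53 and called without Q111 mGluR5+/+ replicate 2. The average effect of receptor loss was 0.28 ± 0.13 and was not called.

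**Figure D1:**
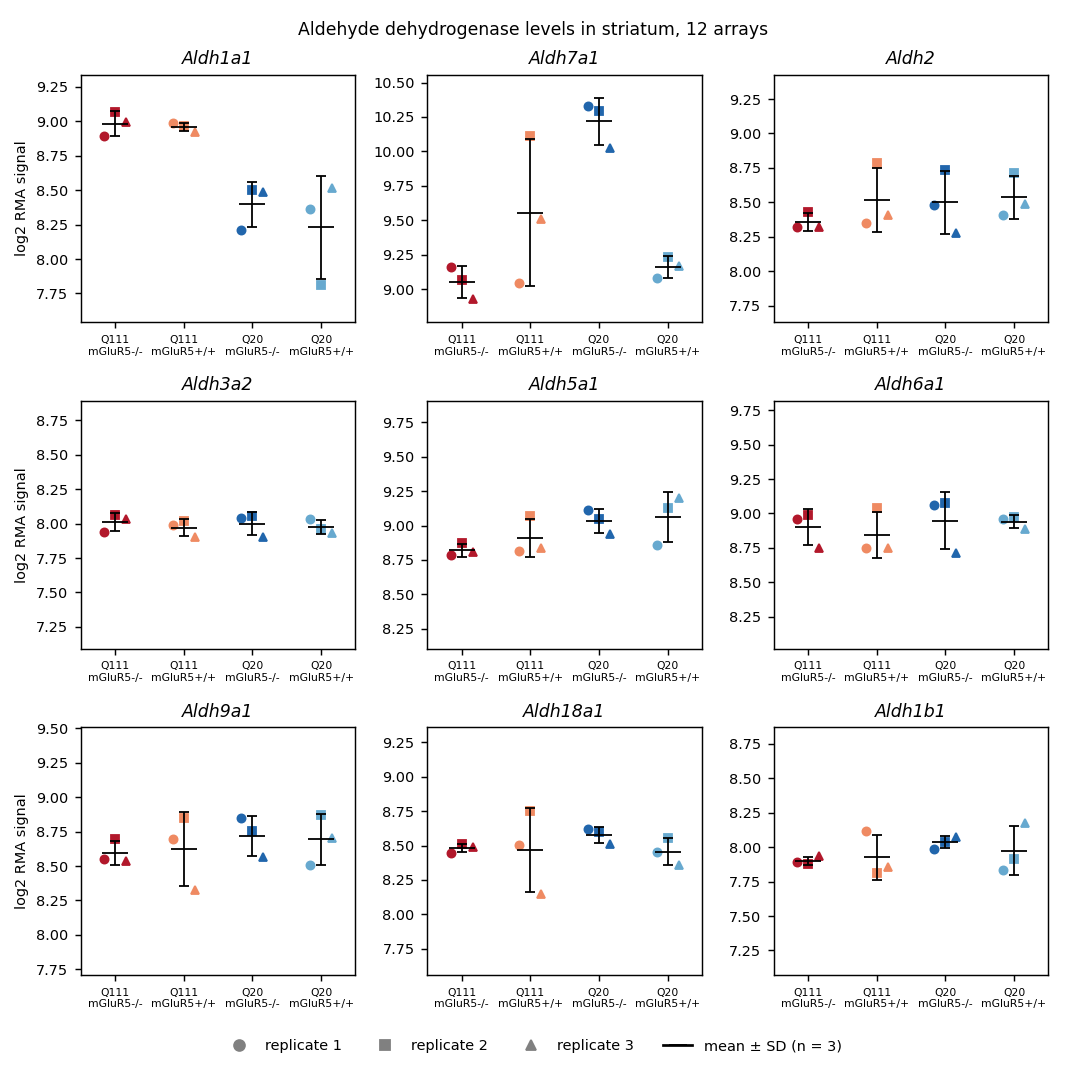
Log2 RMA signal (y axis) of the 9 aldehyde dehydrogenases on the 12 striatal arrays, with the 4 genotype groups on the x axis. Symbols mark the replicates and bars the mean ± SD (n = 3). Each panel has its own axis range. All 6 Q111 arrays lie above all 6 Q20 arrays for Aldh1a1, while for Aldh7a1 the 3 Q20 mGluR5-/- arrays and Q111 mGluR5+/+ replicate 2 lie above 10.

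Read over the family, the calls came from these 2 genes alone. Of the 9 members, 1 was called in the Q111 effect with mGluR5 (Aldh1a1, beside 0.574% of all tested genes) and 1 in the Q111 effect without it (Aldh7a1, beside 0.885%). For receptor loss in Q20 mice 1 was called (Aldh7a1, beside 0.299%), as was 1 in the interaction (Aldh7a1, beside 0.437%) and 1 in the average Q111 effect (Aldh1a1, beside 1.32%). By limma none was called for receptor loss in Q111 mice (0.275% of all tested genes, 1 member at an unadjusted p below 0.05) or for its average (0.293%, 0 members at an unadjusted p below 0.05). An ordinary linear model called 0 members in each comparison. Since the list was made with these calls known, the shares of all genes are given as background and nothing is read from them.

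Over all tested genes, non-overlap of the 3 arrays of one group with the 3 of the other was more frequent than a call. Among the members this was so in the Q111 effect without mGluR5 alone. In the Q111 effect with mGluR5 it held for 1 member (Aldh1a1, beside 9.69% of all tested genes), for receptor loss in Q20 mice for 1 (Aldh7a1, 12.8%) and for receptor loss in Q111 mice for 0 (7.46%). Over the 6 Q111 against the 6 Q20 arrays it held for 1 (Aldh1a1, 1.21%). In the Q111 effect without mGluR5 it held for 5 members, with Aldh1a1 higher and Aldh7a1, Aldh5a1, Aldh18a1 and Aldh1b1 lower, beside 19.1% of all tested genes. The gaps of Aldh5a1 and Aldh1b1 were 0.06 each on the log2 scale and that of Aldh18a1 was 0.0015.

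**Figure D2:**
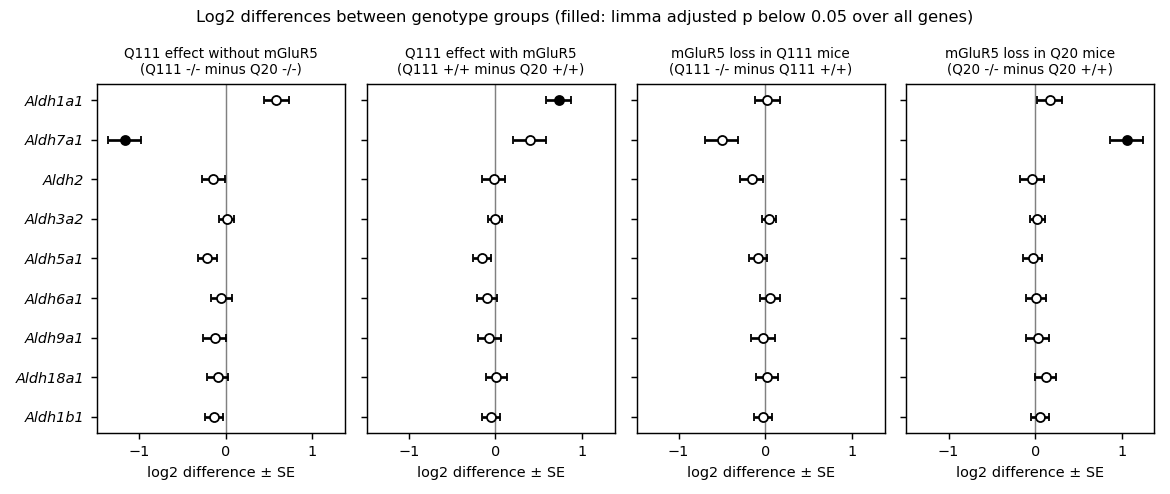
Log2 differences ± SE (x axis) of the 9 members (rows) in the 4 comparisons of single groups, with filled symbols for genes called by limma over all tested genes. Aldh7a1 stands at -1.17 for the Q111 effect without mGluR5 and at 1.06 for mGluR5 loss in Q20 mice, and Aldh1a1 at 0.73 for the Q111 effect with mGluR5.

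The other 7 members were not called in any comparison, and their log2 differences were between -0.21 and 0.12. For the Q111 effect they ran from -0.15 (Aldh5a1) to 0.01 (Aldh18a1) with mGluR5 and from -0.21 (Aldh5a1) to 0.01 (Aldh3a2) without it. For receptor loss they ran from -0.16 (Aldh2) to 0.05 (Aldh6a1) in Q111 mice and from -0.04 (Aldh2) to 0.12 (Aldh18a1) in Q20 mice. The interaction ran from -0.12 (Aldh2) to 0.05 (Aldh6a1). In the average Q111 effect 6 of the 7 were negative, with a median of -0.08 beside -0.02 for all tested genes, and the smallest adjusted p of limma was 0.361 (Aldh5a1).

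Aldh5a1, the succinic semialdehyde dehydrogenase that completes the GABA shunt into the citric acid cycle, had log2 signals of 8.78, 8.87 and 8.81 in Q111 mGluR5-/- mice and 8.81, 9.07 and 8.84 in Q111 mGluR5+/+ mice, against 9.11, 9.05 and 8.94 in Q20 mGluR5-/- mice and 8.86, 9.13 and 9.20 in Q20 mGluR5+/+ mice. The Q111 arrays were mostly the lower ones, but Q111 mGluR5+/+ replicate 2 lay among the Q20 arrays and Q20 mGluR5+/+ replicate 1 among the Q111 arrays. The average Q111 difference was -0.18 in log2.

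The mitochondrial enzymes of acetaldehyde, Aldh2 and Aldh1b1, were not called. Aldh2, which also clears the lipid peroxidation product 4-hydroxynonenal, averaged 8.36 ± 0.06 in Q111 mGluR5-/-, 8.52 ± 0.24 in Q111 mGluR5+/+, 8.50 ± 0.23 in Q20 mGluR5-/- and 8.54 ± 0.16 in Q20 mGluR5+/+ mice (log2, SD, n = 3 each). Aldh1b1 averaged 7.90 ± 0.03, 7.93 ± 0.16, 8.03 ± 0.04 and 7.98 ± 0.18 in the same groups. The spread of Aldh2 followed the replicate number, with replicate 2 the highest array in 4 of 4 groups. The same was true of Aldh6a1, and of 11.7% of all tested genes. Replicate 2 was also the array of widest interquartile range in each group, and the part of that range in these values was not tested.

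Aldh6a1, the methylmalonate semialdehyde dehydrogenase of valine and thymine breakdown, averaged 8.90 ± 0.13 in Q111 mGluR5-/-, 8.84 ± 0.17 in Q111 mGluR5+/+, 8.95 ± 0.21 in Q20 mGluR5-/- and 8.94 ± 0.05 in Q20 mGluR5+/+ mice (log2, SD, n = 3 each). Aldh9a1, which oxidises trimethylaminobutyraldehyde in carnitine synthesis, averaged 8.59 ± 0.09, 8.62 ± 0.27, 8.72 ± 0.14 and 8.69 ± 0.18 in the same groups. Aldh18a1, the mitochondrial synthase of pyrroline-5-carboxylate that starts proline and ornithine synthesis from glutamate, averaged 8.48 ± 0.03, 8.47 ± 0.30, 8.58 ± 0.06 and 8.46 ± 0.10. In these 3 genes the groups overlapped in each comparison of single groups, except for the gap of 0.0015 of Aldh18a1 given above.

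Aldh3a2, the fatty aldehyde dehydrogenase of the endoplasmic reticulum whose human loss causes Sjögren-Larsson syndrome, varied least. Its log2 means were 8.01 ± 0.07, 7.97 ± 0.06, 7.999 ± 0.083 and 7.98 ± 0.05 in Q111 mGluR5-/-, Q111 mGluR5+/+, Q20 mGluR5-/- and Q20 mGluR5+/+ mice (SD, n = 3 each), and its range over the 12 arrays was 0.16. Its within-group SD was 0.067, and 4.09% of tested genes had a smaller one. The SDs of the other members were 0.124 to 0.209, apart from Aldh7a1, and the median of all tested genes was 0.139.

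The family holds 12 further listed genes, of which 11 passed the filter on dim signals and 1, Aldh8a1, did not. None of the 11 was called in any comparison by limma or by the ordinary model, and the number at an unadjusted p of limma below 0.05 was at most 2, in the average Q111 effect. Aldh1a7, the neighbour and near copy of Aldh1a1, had group means of 5.59 in Q111 mGluR5-/-, 5.70 in Q111 mGluR5+/+, 5.78 in Q20 mGluR5-/- and 6.17 in Q20 mGluR5+/+ mice on the log2 scale. Its average Q111 difference was -0.33 ± 0.11 (limma adjusted p = 0.218), opposite in sign to that of Aldh1a1, and it was above the 25th percentile on 4 of 12 arrays. These were the 3 Q20 mGluR5+/+ arrays and Q20 mGluR5-/- replicate 2. It thus passed the filter through Q20 arrays alone, and nothing is read from its sign. Aldh1a2 and Aldh1a3, the other makers of retinoic acid, had average Q111 differences of 0.11 and 0.06 (limma adjusted p = 0.628 and 0.874). Aldh1a2 was above the 25th percentile on 5 of 12 arrays. Aldh1l1, the folate enzyme used as a marker of astrocytes, averaged 8.54, 8.42, 8.52 and 8.59 in the 4 groups in the order given for Aldh1a7. The remaining 7 tested genes, Aldh1l2, Aldh3a1, Aldh3b1, Aldh3b2, Aldh3b3, Aldh4a1 and Aldh16a1, had SDs between arrays of a group of up to 0.27.

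Of the pathways around the members, the retinoid list and the list of fatty aldehyde and sphingosine phosphate genes held 1 called gene each. The 8 lists of substrate and product pathways held 93 genes, of which 81 were tested. In the average Q111 effect 1 of the 81 rose and 1 fell (2.47%, beside 1.32% of all tested genes). Rxrg, a retinoid X receptor that pairs with retinoic acid receptors and is abundant in striatal neurons, fell, with log2 means of 11.05 in Q111 mGluR5-/- and 11.12 in Q111 mGluR5+/+ mice, against 11.45 in Q20 mGluR5-/- and 11.32 in Q20 mGluR5+/+ mice. All 6 Q111 arrays (10.96 to 11.19) were below all 6 Q20 arrays (11.26 to 11.48), and the average difference was -0.30 ± 0.06 (limma adjusted p = 0.0304). The call of Rxrg stood in 3 of the 12 fits that left out an array, those without Q111 mGluR5-/- replicate 1, Q111 mGluR5+/+ replicate 2 or Q20 mGluR5+/+ replicate 1, and its difference ran from -0.32 to -0.27 over the 12. Gba2, a glucosylceramidase outside the lysosome, rose, with 9.83 in Q111 mGluR5-/- and 9.75 in Q111 mGluR5+/+ mice, against 9.48 in Q20 mGluR5-/- and 9.53 in Q20 mGluR5+/+ mice, a difference of 0.28 ± 0.07 (limma adjusted p = 0.0459). The call of Gba2 stood in 1 of the 12 fits, without Q111 mGluR5+/+ replicate 2, and its difference ran from 0.25 to 0.31. By the ordinary model Rxrg was called in the average Q111 effect (adjusted p = 0.0334) and Gba2 was not (adjusted p = 0.0613).

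In the other 6 comparisons limma called 0 of the 81 pathway genes, and between 2 and 11 were at an unadjusted p below 0.05. The ordinary model called 1 of them, Rxrg in the Q111 effect without mGluR5, where the log2 difference was -0.39 (limma adjusted p = 0.0533). Here and elsewhere, no share of all tested genes is set beside counts at an unadjusted p below 0.05, so nothing is read from them. Of the 19 tested genes of the retinoid list, which holds retinol dehydrogenases, binding proteins and receptors, 6 were positive and 13 negative in the average Q111 effect, with a median log2 difference of -0.05 beside -0.02 for all tested genes. Crym, a ketimine reductase of the lysine pathway, differed by -0.40 ± 0.10 in the same comparison (limma adjusted p = 0.0851). Adh1, an alcohol dehydrogenase that oxidises ethanol and retinol, differed by 0.48 ± 0.10 for receptor loss in Q20 mice (limma adjusted p = 0.0737). In average receptor loss, the comparison by which Adh1 was named, it differed by 0.21 (limma adjusted p = 0.628).

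Around the other members no list held a call. In receptor loss in Q20 mice all 16 tested genes of the valine and propionate list were positive, with a median log2 difference of 0.10 beside 0.02 for all tested genes, and 2 were at an unadjusted p below 0.05. Hibch, which acts in valine breakdown before Aldh6a1, differed by 0.34 there (limma adjusted p = 0.807) and by 0.20 in average receptor loss, where it was not called. All 6 tested genes of the proline and ornithine list were negative in the average Q111 effect, with a median of -0.12 beside -0.02, and Odc1, which makes putrescine from ornithine, differed by -0.39 ± 0.15 (limma adjusted p = 0.328). Gad2, a GABA-making decarboxylase, differed by -0.16 in the average Q111 effect (limma adjusted p = 0.464). Bhmt of the betaine pathway differed by -0.24 in average receptor loss (limma adjusted p = 0.770).

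The genes lying beside Aldh7a1 on chromosome 18 had smaller differences. None of its 10 tested neighbours was called by limma or by the ordinary model in any comparison, and these were Prdm6, Cep120, Csnk1g3, Zfp608 and Gramd3 on one side, and Phax, Tex43, Lmnb1, Marchf3 and 1 predicted gene on the other. Phax, an export adaptor of small nuclear RNA whose RefSeq span overlaps that of Aldh7a1, had a limma difference of 0.05 on the log2 scale both in the Q111 effect without mGluR5 and in receptor loss in Q20 mice. The largest differences of a neighbour in these comparisons were -0.43 and 0.31, both of Csnk1g3, a casein kinase (limma adjusted p = 0.303 and 0.841). The mixed background leaves strain alleles near a gene and genotype unable to be told apart.

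Of the 10 tested neighbours of Aldh1a1 on chromosome 19, limma called 1 in any comparison. The calls were in the average Q111 effect (beside 1.32% of all tested genes) and in the Q111 effect with mGluR5 (beside 0.574%). The transcript 1500015L24Rik, next to Aldh1a1 on the side away from Aldh1a7, was higher in Q111 than in Q20 mice by 0.48 ± 0.09 on average (limma adjusted p = 0.0136) and by 0.61 ± 0.13 among mGluR5+/+ mice (limma adjusted p = 0.0384). The average call stood in all 12 fits that left out an array, but neither call was made by the ordinary model (adjusted p = 0.0927 for the average and 0.207 among mGluR5+/+ mice). The call among mGluR5+/+ mice stood in 4, those without Q111 mGluR5-/- replicate 1 or 2, Q111 mGluR5+/+ replicate 1 or Q20 mGluR5-/- replicate 3, with differences of 0.50 to 0.72 over the 12. Its log2 means were 6.93 in Q111 mGluR5-/- and 7.38 in Q111 mGluR5+/+ mice, against 6.59 in Q20 mGluR5-/- and 6.76 in Q20 mGluR5+/+ mice. Gda, a guanine deaminase on the other side, differed by -0.40 on average (limma adjusted p = 0.0669), and Rorb, a nuclear receptor, by -0.16.

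**Figure D3:**
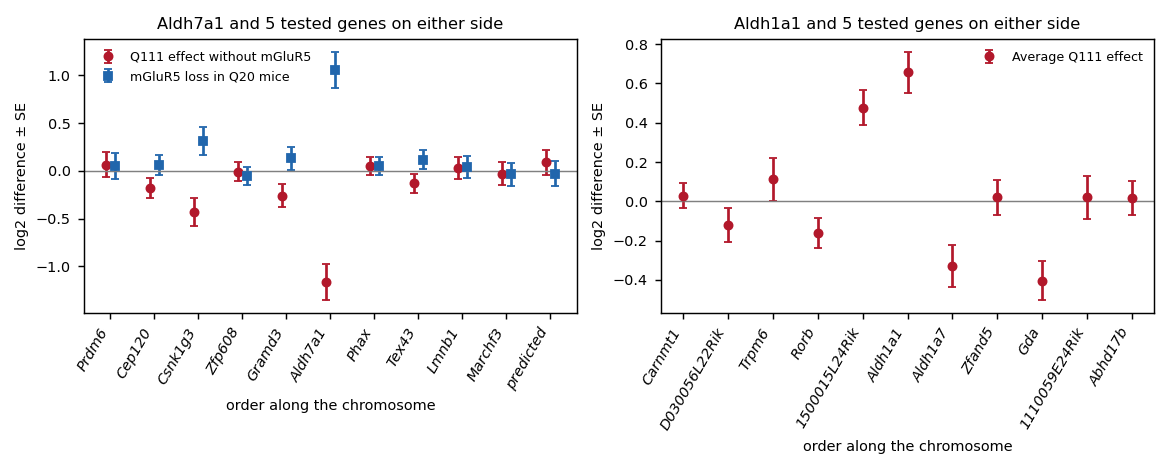
Log2 differences ± SE (y axis) of Aldh1a1, Aldh7a1 and the 5 tested genes on either side of each, in order along the chromosome (x axis, not to scale). Aldh7a1 stands at -1.17 and 1.06 while its neighbours lie between -0.43 and 0.31, and beside Aldh1a1 the transcript 1500015L24Rik stands at 0.48 in the average Q111 effect.

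The genes most like Aldh7a1 were ranked by Pearson r of log2 signal over the 12 arrays, which share the 4 groups and the array-wide spread, so the r values are descriptions. Nnt, the mitochondrial transhydrogenase that makes NADPH, had the highest (r = 0.93, Spearman rho 0.89), with log2 means of 8.54 in Q111 mGluR5-/-, 8.91 in Q111 mGluR5+/+, 9.20 in Q20 mGluR5-/- and 8.80 in Q20 mGluR5+/+ mice. Nnt on chromosome 13 was lower in Q111 than in Q20 mice without mGluR5, by -0.66 (limma adjusted p = 0.0320). This call was absent without any 1 of the 6 mGluR5-/- arrays, with differences of -0.68 to -0.63. As background, the C57BL/6J substrain carries a deletion in Nnt, and strain alleles and genotype cannot be told apart here. Tmed4, a cargo protein of the secretory pathway, followed (r = 0.93, rho 0.78), with an interaction of -0.81 in log2 (limma adjusted p = 0.0491), which stayed called in 1 of 12 fits, without Q111 mGluR5+/+ replicate 3, over a range of -0.89 to -0.67.

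Dock1, an activator of Rac (r = 0.92, rho 0.94), Rpf1, a ribosome assembly factor (0.91, 0.85), and Ap3m1, an adaptor subunit of vesicle sorting (0.91, 0.68), were next and were not called in any comparison by limma. In the opposite direction stood 4930519G04Rik (r = -0.89, rho -0.80), Cbln1, a secreted organiser of synapses (-0.88, -0.80), and Kcnn2, a calcium-activated potassium channel (-0.87, -0.62). Kcnn2 lies on chromosome 18, as Aldh7a1 does, outside the 5 tested neighbours on either side of Aldh7a1. It was called in the same 3 comparisons as Aldh7a1, with opposite signs. Strain alleles on this chromosome and genotype cannot be told apart here either. The log2 signals of 4930519G04Rik (5.54 to 5.92) and Cbln1 (5.48 to 5.87) were dim. They lay near the 25th percentiles of the arrays, which were 5.69 to 5.94. Kcnn2 was called in 3 comparisons, with log2 differences of 0.58 in the Q111 effect without mGluR5 (limma adjusted p = 0.0180), -0.69 in receptor loss in Q20 mice (limma adjusted p = 0.00907) and 0.88 in the interaction (limma adjusted p = 0.0181). Leaving out an array kept these calls in 8, 9 and 7 of 12 fits. The first was absent without Q111 mGluR5-/- replicate 1 (0.57) or 2 (0.51) or Q20 mGluR5-/- replicate 1 (0.51) or 3 (0.59), and the second without Q20 mGluR5-/- replicate 1 (-0.63) or Q20 mGluR5+/+ replicate 2 or 3 (-0.67 each). The third was absent without Q111 mGluR5-/- replicate 1 (0.87) or 2 (0.81), Q20 mGluR5-/- replicate 1 (0.81) or Q20 mGluR5+/+ replicate 2 or 3 (0.86 each). The ordinary model made none of the calls of Nnt (adjusted p = 0.178), Tmed4 (0.256) and Kcnn2 (0.0845, 0.0869 and 0.140 in the order above). Of 16720 genes, 122 had an r of at least 0.8 and 24 an r of -0.8 or below.

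**Figure D4:**
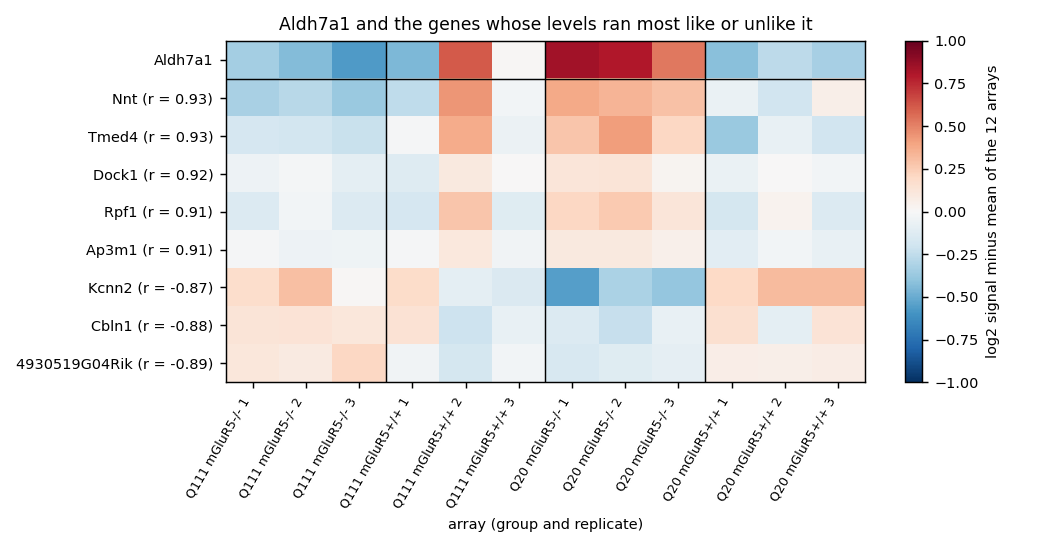
Log2 signal minus the mean of the 12 arrays (colour scale from -1 to 1, with values beyond it shown at its ends) for Aldh7a1 and the 8 genes with the highest and lowest Pearson r to it (rows), by array (columns, grouped by genotype). Aldh7a1 is high in the 3 Q20 mGluR5-/- arrays and in Q111 mGluR5+/+ replicate 2.

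Markers of the cell types in which these enzymes work were set beside the Aldh7a1 and Aldh1a1 values. The mean log2 level of 7 tested microglial markers was 8.30 to 8.38 in Q111 mGluR5-/-, 8.38 to 8.44 in Q111 mGluR5+/+, 8.42 to 8.64 in Q20 mGluR5-/- and 8.38 to 8.44 in Q20 mGluR5+/+ arrays. Of the 7, 6 were positive in receptor loss in Q20 mice and 1 in the Q111 effect without mGluR5. Of 10 astrocyte markers, 8 were positive in receptor loss in Q20 mice, with mean levels of 9.60 to 9.73 in mGluR5-/- and 9.58 to 9.64 in mGluR5+/+ arrays. Of 11 endothelial and mural markers, 9 were positive in receptor loss in Q20 mice, with a median log2 difference of 0.15 beside 0.02 for all tested genes, and 10 were negative in the Q111 effect without mGluR5, with a median of -0.31 beside -0.02. The 1 called marker of the 11, the pericyte channel subunit Abcc9, stood in both comparisons, at 0.46 ± 0.08 for receptor loss in Q20 mice (limma adjusted p = 0.0203) and -0.46 ± 0.08 for the Q111 effect without mGluR5 (limma adjusted p = 0.0109), and is named after its values were seen. Its call for receptor loss was absent without any 1 of the 6 Q20 arrays, with 0.44 to 0.50 over the 12 fits, and that for the Q111 effect was absent without Q111 mGluR5-/- replicate 1 (-0.43) or 3 (-0.45) or Q20 mGluR5-/- replicate 1 (-0.48). For receptor loss in Q20 mice these 3 lists ran on the side of Aldh7a1. So did those of striatal projection neurons (8 of 10 positive, median 0.06), oligodendrocytes (6 of 9) and choroid plexus (4 of 6). Of the meningeal and fibroblast markers 2 of 5 were positive, and of the cortical markers 2 of 4. All 5 thalamic markers ran the other way in that comparison (7.34 to 7.49 in Q20 mGluR5-/- and 7.48 to 8.01 in Q20 mGluR5+/+ arrays). In the Q111 effect without mGluR5, 6 of 9 oligodendrocyte markers (median 0.15) and 4 of 5 thalamic markers (0.11) were positive, opposite to Aldh7a1. Positive there were also 4 of 10 projection neuron, 3 of 10 astrocyte, 2 of 6 choroid plexus, 2 of 5 meningeal and fibroblast and 2 of 4 cortical markers.

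For the average Q111 effect, 1 of 11 endothelial and mural markers was positive, with mean log2 levels of 7.65 to 7.80 in Q111 mGluR5-/- and 7.53 to 7.80 in Q111 mGluR5+/+ arrays, against 7.89 to 7.90 in Q20 mGluR5-/- and 7.70 to 7.88 in Q20 mGluR5+/+ arrays. Of 9 tested oligodendrocyte markers 7 were positive, with 10.43 to 10.50 and 10.27 to 10.54 in the Q111 groups against 10.29 to 10.50 and 10.17 to 10.42 in the Q20 groups, each with mGluR5-/- before mGluR5+/+. Of the other lists, 4 of 4 cortical (median 0.11), 0 of 5 meningeal and fibroblast and 1 of 7 microglial markers were positive. So were 6 of 10 projection neuron, 5 of 10 astrocyte, 2 of 6 choroid plexus and 2 of 5 thalamic markers. The markers Otx2 of choroid plexus and Lum of meninges did not pass the filter on dim signals. The part of the marker lists in the differences of Aldh7a1 and Aldh1a1 was not tested.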

How the data were processed

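The deposited table holds log2 signals, and the submitters' processing notes name RMA, by which the authors made them, and Partek. The series text names Partek Genomics Suite 6.5 with an ANOVA p below 0.05 and a 1.5-fold change as criteria. Annotation gave 1 symbol to 21789 of 35556 probe sets, several to 1621 and none to 12146, and 91 of the named sets had no RefSeq match. Each of 19938 genes was represented by its brightest set, and 16721 passed a filter on the 25th percentile in at least 3 arrays. All 12 arrays entered 1 limma model per gene (limma 3.58.1, R 4.3.3) with a mean for each genotype, 8 residual and 6.88 prior degrees of freedom, and two-sided tests adjusted by Benjamini-Hochberg over all tested genes. The script was tested on simulated data. Precision is limited by the 3 arrays per group.

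The members, gene lists and tests were chosen with earlier results of these data known. The rule for named genes took all members, the other measured aldehyde dehydrogenases, the called members of each pathway list or else the one with the largest average difference, the 5 tested neighbours on either side of each called member, and the 5 genes most like and 3 least like Aldh7a1. Predicted genes were not named. Kinds of alternative were an ordinary model, the authors' criteria, an intensity trend, a replicate block, other filters, probe sets and scalings, array weights, an interquartile range covariate, the compared groups alone and each array left out. Plots used matplotlib 3.10.9 in Python 3.11.15.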

Additional observations from a re-analysis of the deposited data

Results flagged for a closer look

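Aldh7a1 had estimated Q111 effects of opposite sign in the receptor genotypes, and the test of that difference, the interaction term of limma, was called. The log2 difference between Q111 and Q20 mice was -1.17 without mGluR5 and 0.39 with it, and their difference was -1.56 ± 0.27 (SE). The value of 0.39 was not called, its groups overlapped, and it was 0.12 without Q111 mGluR5+/+ replicate 2. An ordinary linear model did not call the interaction of Aldh7a1. In 3 of the 12 fits that left out an array the interaction was not called, with values of -1.50 without Q111 mGluR5-/- replicate 3, -1.50 without Q20 mGluR5-/- replicate 1 and -1.56 without Q20 mGluR5+/+ replicate 3. Earlier results of these arrays had already picked this gene, so the value is no independent evidence.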

How the results depend on the processing

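Under the alternatives each contrast kept 0 to 4 members called. An ordinary linear model called 0 members in each of the 7 contrasts, against 1 for limma in 5 of them. It called 19 to 123 of all 16721 tested genes per contrast, where limma called 46 to 221. In the Q111 effect with mGluR5, array weights and a fit on the compared groups alone called 0 members. Of all 16721 tested genes they called 44 and 47, against 96 in the main fit. In the Q111 effect without mGluR5, the authors' criteria, the replicate block and the compared groups alone called 2 (Aldh1a1 and Aldh7a1), and array weights called 4 (with Aldh5a1 and Aldh9a1). Of all 16721 tested genes these called 112, 343, 170 and 3270 in the same order, against 148 in the main fit. In the average Q111 effect, array weights called 2 (Aldh1a1 and Aldh7a1), and 391 of all 16721 tested genes against 221 in the main fit. Nothing is read from these counts of members. The weights were estimated by a procedure that did not reach its convergence tolerance. With 1 array left out, the number called was 0 to 1 in the Q111 effect with mGluR5, in receptor loss in Q20 mice and in the interaction, and 1 to 2 in the Q111 effect without mGluR5 and in the average Q111 effect. The intensity trend, no filter, all probe sets, mean probe sets, quantile normalization, median centring and the interquartile range covariate left each number of called members within 1.5 times its value. No called difference of a member changed sign in any alternative. Among uncalled differences of Aldh1a1, receptor loss in Q20 mice (0.17) was -0.10 with array weights and the interaction (-0.14) was 0.09. The cause of these changes was not tested.

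Same-numbered arrays of different groups had deviations correlated above 0.1 in 11 of 18 pairs (r from -0.14 to 0.57), so not every pair reached the criterion for pairing and the block is given as an alternative alone. The 6 pairs of replicate 2 all did (0.34 to 0.57), against 2 of 6 for replicate 1 and 3 of 6 for replicate 3, and 21 of 36 best matches had the same number. Whether same-numbered arrays share a source of variation was not tested. The replicate block changed the number of called members in the Q111 effect without mGluR5 alone, to 2.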
